A study of Mus musculus with 12 samples.

Results

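Spheres of mouse cochlear glia were compared with the cells obtained from them after 14 days in the differentiation medium that the study calls SCDM. The comparison uses 6 of the 12 RNA-seq libraries of the series, 3 of spheres and 3 of SCDM, which were chosen by their sample labels. The cells came from the spiral ganglia of mice on a mixed C57BL6 and FVB/N background, labelled as postnatal day 4, while the protocol shared by all samples allows a wider range of postnatal ages and takes the ganglia of 6 to 8 mice of both sexes. Spheres were grown in suspension in a serum-free DMEM/F12 medium with the B27 and N2 supplements, EGF at 20 ng/ml, bFGF at 10 ng/ml, IGF at 50 ng/ml and heparan sulfate at 50 ng/ml. For SCDM, spheres were plated on poly-L-ornithine and laminin and then kept in DMEM/F12 with B27, N2, BDNF at 50 ng/ml and NT3 at 50 ng/ml. Another group, SCDM/FGF, received the same neurotrophins plus bFGF at 100 ng/ml for the same 14 days, and it is used below where SCDM is set against it. Medium, growth factors, substrate, adherent culture and time in culture all changed between spheres and SCDM, so their contributions cannot be told apart. The study states that its spheres also held non-glial cells with otic mesenchyme markers. In bulk libraries, fewer cells of a type and less RNA per cell cannot be told apart. The labels call the replicates biological without naming the animals behind each, so the p-values measure the spread between libraries. That spread, also behind each SE, was estimated within the groups of all 12 libraries and not from the 6 alone.

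The glia of the spiral ganglion are Schwann cells, which ensheathe the neurites of the auditory neurons, and satellite cells, which wrap their cell bodies. Both derive from the neural crest and depend on the transcription factor Sox10. EGF and bFGF are mitogens that signal through receptor tyrosine kinases and the ERK cascade, which in turn induces its own inhibitors of the Sprouty and dual-specificity phosphatase families. BDNF and NT3 act through the receptors TrkB and TrkC and are known as survival factors of auditory neurons. Cells on a stiff, coated surface commonly build actin stress fibres and secrete collagen-rich matrix, a state described for myofibroblasts.

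The deposited values are TPM, each gene's share of the transcripts of a library after correction for gene length, and they were rescaled so that the typical gene had the same level in every library (scaled TPM). The depth of the libraries is unknown because TPM do not keep the number of reads. The 6 libraries had 21725 to 22121 genes above 0, and replicates correlated across genes with Pearson's r between 0.983 and 0.985, genes not being independent of each other. Fold changes are differences of log2(scaled TPM + 1), which understates the change of genes at low levels. A gene is said to have risen or fallen where the adjusted p was under 0.05 in limma, with Benjamini-Hochberg adjustment over 16016 genes. By that rule 3918 genes rose (24.5% of those tested) and 4136 fell (25.8%) from spheres to SCDM. At least a 2-fold change was also met by 1112 genes that rose (6.94%) and 874 that fell (5.46%). Counts of list members below are to be read beside these shares of all genes. Over all genes the median log2 fold change was −0.01. Without the rescaling, the median of all genes was −0.13, and 2805 genes rose and 5688 fell. Libraries of the 2 groups did not overlap, with SCDM higher, for 28.2% of genes, and with SCDM lower for 30.3%.

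The highest fold change belonged to a neuropeptide gene and the lowest to a protease gene of cytotoxic granules. Among the genes that averaged at least 10 scaled TPM over the 6 libraries and did not overlap between the groups, the 15 with the largest rise were led by Penk, which encodes the opioid precursor proenkephalin, and Ptx3, a secreted pattern recognition protein. Penk (ENSMUSG00000045573, chromosome 4 from 4133531 to 4138819 on the minus strand in the GENCODE M21 annotation of GRCm38) measured 1.52, 1.91 and 2.50 in the spheres and 585, 610.4 and 745 in SCDM (scaled TPM), a log2 fold change of 7.77 ± 0.29 (SE, n = 3 libraries per group, limma adjusted p = 3.34e-09). It was thus low in every sphere library and abundant in every SCDM library, where the rule already required an adjusted p under 0.05 and no overlap. Ptx3 measured 4.89, 5.12 and 4.98 in the spheres and 888, 901 and 1002 in SCDM, a log2 fold change of 7.28. Of the remaining genes of that set, 7 encode matrix or tendon-type proteins, namely Col8a2 (6.30), Fmod (6.10), Ogn (5.85), Col12a1 (5.53), Eln (5.42), Tnmd (5.07) and Aspn (5.00). Tagln (6.54), Myl9 (5.64) and Acta2 (5.36) encode parts of the smooth muscle contractile machinery. The list is completed by Fcrls (5.45), a scavenger receptor of microglia and other macrophages, the natriuretic peptide clearance receptor Npr3 (4.84) and the methyltransferase Inmt (4.80).

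Gzmb (ENSMUSG00000015437, chromosome 14 from 56258838 to 56262260 on the minus strand), which encodes granzyme B, had the largest fall, from 255, 291 and 268 in the spheres to 1.12, 0.887 and 0.983 in SCDM (log2 fold change −7.09 ± 0.12, limma adjusted p = 3.59e-11). The rule behind the 15 largest falls already required an adjusted p under 0.05 and no overlap between the groups. The other 14 were Cpne7 (−5.82), Crocc2 (−5.41), the interferon-induced membrane protein gene Ifitm1 (−4.72), Sned1 (−4.68), the AP-1 subunit gene Fosb (−4.62), the matrix protein gene Tnxb (−4.42), Cdh13 (−4.28), Nell1 (−4.22), Ackr4 (−4.17), the glucocorticoid-activating enzyme gene Hsd11b1 (−4.11), Prom1 (−4.09), the integrin gene Itga8 (−4.09), Pamr1 (−3.85) and the gap junction gene Gjb2 (−3.77). Prom1 encodes CD133, a surface protein of many stem and progenitor cells.

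**Figure D1:**
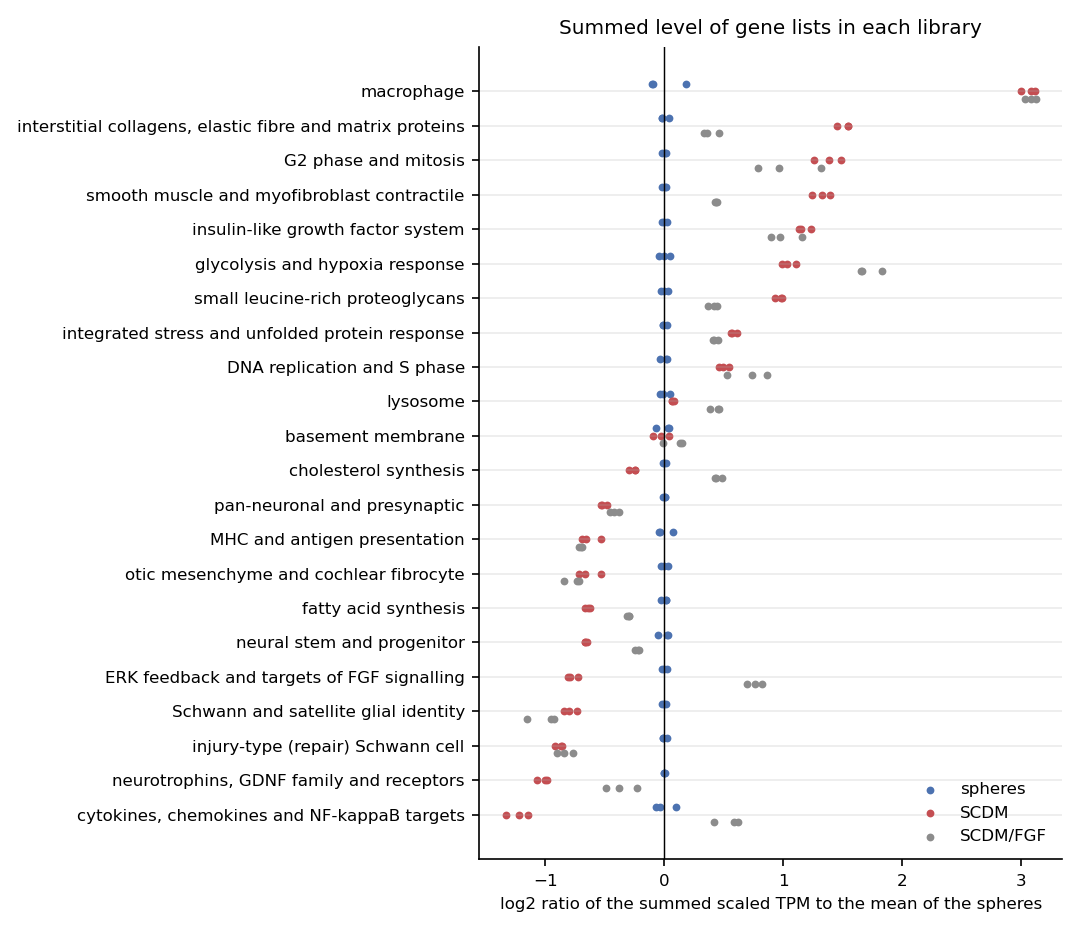
Summed level of 22 gene lists in each library, as the log2 ratio of the summed scaled TPM to the mean of the 3 sphere libraries, for spheres, SCDM and SCDM/FGF. Each point is 1 library, and the macrophage list lies farthest to the right, with sphere sums of 767 to 933 scaled TPM and SCDM sums of 6551 to 7125.

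Glial identity genes were mostly lower in SCDM. Of 28 genes of Schwann and satellite glia, 5 rose and 20 fell, 16 of them at least 2-fold, where 25.8% of all genes fell. Their median log2 fold change was −1.12, against −0.01 for all genes. Fabp7, a fatty acid binding protein of immature glia, measured 117, 119 and 107 in the spheres and 24.1, 17.2 and 18.8 in SCDM (scaled TPM, log2 fold change −2.47 ± 0.15, limma adjusted p = 1.08e-07). Erbb3, the neuregulin receptor of Schwann cells, measured 32.0, 32.5 and 34.1 in the spheres and 12.3, 12.0 and 11.5 in SCDM (−1.39 ± 0.12). In both genes the highest SCDM library lay below the lowest sphere library, and none reached 0. The endothelin receptor gene Ednrb (−1.74), the neural crest factor genes Foxd3 (−1.53), Tfap2a (−1.44) and Sox10 (−1.50), the cadherin gene Cdh19 (−1.28) and the low-affinity neurotrophin receptor gene Ngfr (−1.36) fell as well. Sox2, which marks satellite glia and progenitors, fell too (−2.37).

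The glial genes did not all move together. Ncam1, the neural cell adhesion molecule of non-myelinating Schwann cells, rose from 15.9, 15.3 and 15.6 in the spheres to 86.4, 92.5 and 91.9 in SCDM (2.46 ± 0.07, limma adjusted p = 3.42e-10). Adam23, which binds LGI proteins, rose from 27.5, 27.9 and 33.9 in the spheres to 122, 124 and 113 in SCDM (1.98), while Lgi4, the Schwann cell member of the LGI family, fell (−1.09). L1cam (0.94), Scn7a (0.44) and Sema3b (0.36) were the other members that rose. Ncam1, Adam23 and L1cam are also made by other cell types, and their part in the result was not tested.

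Of 22 myelin genes, 16 passed the limit on low levels, and 8 rose and 7 fell. The membrane protein genes Pllp (−2.98) and Gldn (−2.13) and the enzyme gene Cnp (−1.41) fell most among those over 10 scaled TPM in the spheres. Pmp22, a compact myelin protein also made by fibroblasts, rose from 71.1 ± 0.522 in the spheres to 159 ± 11.3 in SCDM (scaled TPM, mean ± SD, n = 3, log2 fold change 1.15). The myelination factor gene Egr2 (0.85), the node of Ranvier gene Nfasc (1.84), Prx (0.83) and Ncmap (2.29) rose too. Mag, Pmp2 and Mobp averaged under 1 scaled TPM.

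Genes of the injury-type, or repair, Schwann cell fell. Of 14 members, 2 rose and 10 fell, 9 of them at least 2-fold, with a median of −1.38. Jun, the AP-1 factor that drives the repair state, measured 305, 302 and 307 in the spheres and 105, 109 and 102 in SCDM (−1.53 ± 0.04, limma adjusted p = 1.50e-10). The urocortin gene Ucn2 (−3.18), the glial transcription factor gene Olig1 (−2.05), the stress factor gene Atf3 (−1.61) and the trophic factor gene Gdnf (−1.53) fell. Lif, a cytokine gene of the same list, rose (1.56). Of 17 neural stem and progenitor genes that passed the limit on low levels, 16 fell and 0 rose, with a median of −0.94. Prom1 measured 28.2, 36.5 and 30.4 in the spheres and 0.600, 1.08 and 1.08 in SCDM (−4.09 ± 0.15), Hmga2, a chromatin protein of fetal progenitors, 56.8, 51.6 and 54.3 in the spheres and 7.29, 8.75 and 7.42 in SCDM (−2.65 ± 0.07), and Id1, a target of BMP signals, 127, 133 and 114 in the spheres and 29.99, 30.5 and 27.4 in SCDM (−2.05 ± 0.10). The intermediate filament genes Nes (−0.29) and Vim (−0.52) fell by less than 2-fold, so that the fall was uneven within the list.

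**Figure D2:**
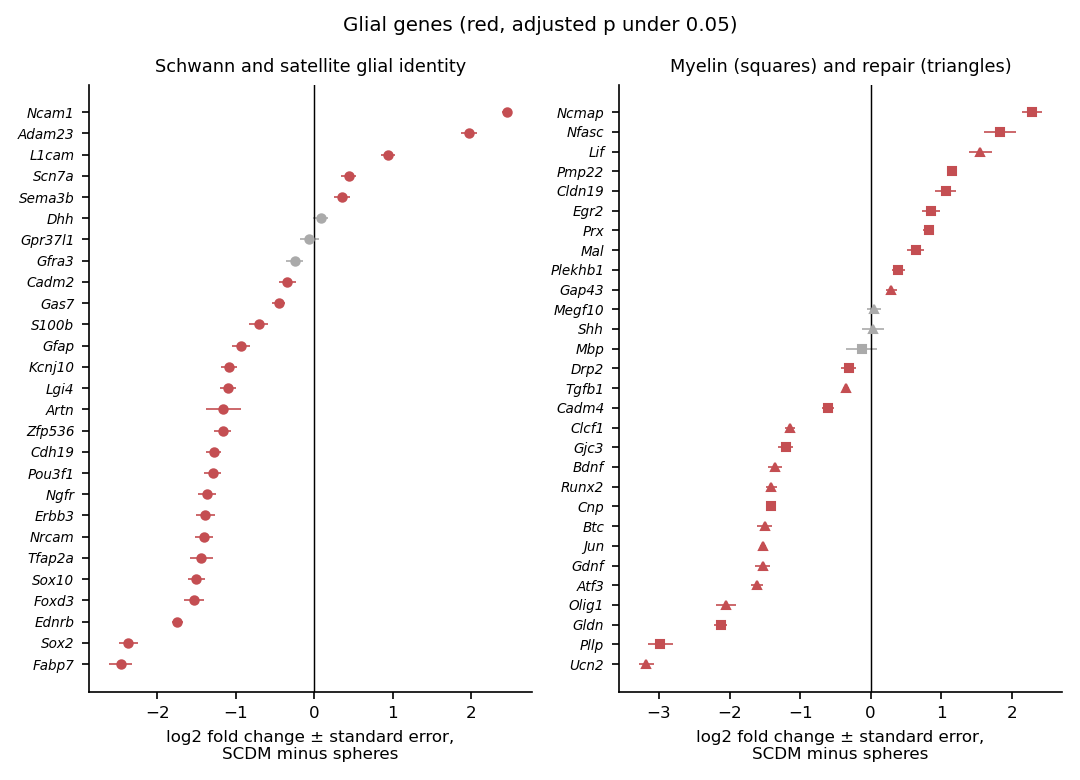
Log2 fold change ± SE from spheres to SCDM (x axis) for tested genes of glial identity (circles), myelin (squares) and the repair Schwann cell (triangles), with genes of adjusted p under 0.05 in red. Most glial and repair genes lie left of 0, down to −3.18 for Ucn2, while Ncam1 (2.46), Ncmap (2.29) and Adam23 (1.98) lie to the right.

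The sample labels call the SCDM cells induced neurons, and most neuronal genes did not go with that name. Of 43 pan-neuronal and presynaptic genes, 38 passed the limit on low levels, 7 rose and 17 fell, and the median was −0.24. Over all genes 24.5% rose and 25.8% fell. Defining genes stayed near 0 in SCDM: the RNA-binding protein genes Rbfox3 (0.0156 ± 0.0270 scaled TPM, n = 3) and Elavl3 (0.0284 ± 0.0412), the microtubule protein gene Dcx (0.0505 ± 0.0336) and the peripherin gene Prph (0.0883 ± 0.121). The neurofilament genes Nefm and Nefl were detected in spheres and almost absent from SCDM, with Nefm at 6.89, 7.47 and 8.16 in the spheres and 0.257, 0.196 and 0.293 in SCDM (−2.77 ± 0.11, limma adjusted p = 5.00e-09) and Nefl at 3.50, 3.29 and 3.38 in the spheres and 0.0762, 0.0841 and 0.0472 in SCDM (−2.04). The ubiquitin hydrolase gene Uchl1 (−1.14), the neuron-specific enolase gene Eno2 (−1.46), the endosomal gene Nsg1 (−1.10) and the synaptotagmin gene Syt1 (−1.32) fell.

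A few neuronal genes rose from low levels. Thy1, a surface protein of neurons, fibroblasts and other cells, measured 4.01, 4.19 and 2.69 in the spheres and 29.5, 22.9 and 22.4 in SCDM (2.49 ± 0.17). The beta-tubulin gene Tubb3 (1.11) and the granin gene Scg2 (2.00) also rose, and no member that rose by at least 2-fold averaged above 24.9 ± 3.99 scaled TPM in SCDM. Among 19 genes of spiral ganglion neurons, 12 passed the limit on low levels, 2 rose and 2 fell, and leaving out any 1 of the 6 libraries lowered at least 1 of these counts to 1. The lineage factor genes Pou4f1 (0.0633 ± 0.0581), Isl1 (0.0125 ± 0.0216) and Neurod1, and the vesicular glutamate transporter gene Slc17a7 (0.170 ± 0.0423), averaged under 1 scaled TPM in SCDM, with Neurod1 listed at 0 in all 3 libraries. The largest rise, in Runx1 (1.50), was in a gene that macrophages and mesenchymal cells also express.

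The receptors and ligands of the neurotrophins in the medium moved unevenly. Ntrk2, which encodes the BDNF receptor TrkB, measured 163, 167 and 166 in the spheres and 42.0, 45.1 and 38.6 in SCDM (−1.96 ± 0.09, limma adjusted p = 1.53e-08), so every SCDM library was well below the spheres. Ntrk3, which encodes the NT3 receptor TrkC, measured 10.0, 9.01 and 10.2 in the spheres and 11.3, 11.7 and 13.2 in SCDM (0.28 ± 0.10, limma adjusted p = 4.05e-02), a rise of less than 2-fold that no longer passed the test when any of 5 of the 6 libraries was left out, the exception being SCDM replicate 1. Of the ligands, Bdnf fell (−1.36), and Ntf3 averaged under 1 scaled TPM in both groups. The GDNF receptor subunit gene Gfra1 (−1.88) fell, while Gfra2 (0.69) and the sortilin family genes Sort1 (0.54) and Sorcs2 (0.98) rose. Over the 18 tested members of the list, 6 rose and 8 fell, where 24.5% and 25.8% of all genes did. Of 14 tested Notch pathway genes, 5 rose and 4 fell, near the same shares, with Notch1 down (−1.55) and Notch2 up (0.92).

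Genes of the extracellular matrix rose in number and level. Of 37 genes of interstitial collagens, elastic fibres and matrix proteins, 30 rose, 24 of them at least 2-fold, and 5 fell, where 24.5% of all genes rose and 6.94% rose at least 2-fold. The median was 1.74. Their summed level was 9210.4, 8848 and 8817 in the spheres and 24432, 26167 and 26119 in SCDM, in scaled TPM, so all SCDM libraries lay above all spheres. Col1a2, a chain of type I collagen, measured 509, 473 and 494 in the spheres and 3219.9, 3481 and 3455 in SCDM (2.78 ± 0.07, limma adjusted p = 2.10e-10). Eln, the elastin gene, measured 13.7, 13.7 and 11.8 in the spheres and 562, 596 and 643 in SCDM (5.42 ± 0.33), and Postn, the periostin gene, 235, 235 and 247 in the spheres and 1650.0, 1733 and 1790.4 in SCDM (2.85 ± 0.11). The fibril-associated collagen genes Col12a1 and Col14a1 (3.57), the microfibril genes Fbn1 (2.71), Mfap4 (3.75) and Mfap5 (3.85), the fibronectin gene Fn1 (1.96) and the crosslinking enzyme genes Lox (2.12) and Loxl2 (3.20) rose with them. Sparc, which encodes a collagen-binding glycoprotein, reached 5924 ± 9.80 scaled TPM from 1774 ± 73.8 (1.74).

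Type VI collagen went the other way. Col6a1 (−0.34), Col6a2 (−0.44) and Col6a3 (−1.38) fell, as did Col15a1 (−1.96) and the fibulin gene Fbln1 (−0.54). Among the small leucine-rich proteoglycans, which regulate collagen fibril assembly, 6 of 9 tested genes rose, with Fmod at 1.14, 1.42 and 1.36 in the spheres and 156, 151 and 163 in SCDM (6.10 ± 0.41) and Ogn at 9.20, 10.9 and 10.3 in the spheres and 685, 596 and 645 in SCDM (5.85 ± 0.16). Dcn (−0.67) and Lum (−0.97), 2 abundant members of the same family, fell. In the basement membrane list 9 of 18 tested genes rose and 8 fell. All 6 type IV collagen chains fell, with Col4a1 at 1004 ± 44.3 in the spheres and 508 ± 51.7 in SCDM (−0.99) and Col4a6 at 5.54 ± 0.358 in the spheres and 1.36 ± 0.113 in SCDM (−1.47), whereas the nidogen genes Nid1 (1.41) and Nid2 (2.84), the laminin gene Lama1 (2.88) and the perlecan gene Hspg2 (0.92) rose.

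Genes of matrix proteases and their inhibitors fell more often than they rose, and the tissue inhibitors moved in both directions. Of 28 tested genes of proteases and inhibitors, 10 rose and 16 fell, with a median of −0.70. The stromelysin gene Mmp3 measured 1437, 1575 and 1478 in the spheres and 95.2, 158 and 204 in SCDM (−3.35 ± 0.21, limma adjusted p = 1.57e-07) and the gelatinase gene Mmp9 65.6, 63.7 and 63.6 in the spheres and 5.04, 4.88 and 6.19 in SCDM (−3.36 ± 0.11). Mmp11 (−2.64), Mmp13 (−1.30) and Mmp14 (−0.69) fell, while Mmp23 (3.30) and Adamts9 (2.99) rose. Timp1 (2.17) and Timp3 (2.43), tissue inhibitors of metalloproteinases, rose, and Timp2 (−1.22) and Timp4 (−1.77) fell.

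Contractile genes mostly rose, and Acta2, Tagln and Myl9 did so from very low levels. Of 14 tested genes of smooth muscle and myofibroblasts, 12 rose and 1 fell, with a median of 1.17. Acta2, which encodes the alpha-actin of smooth muscle and myofibroblasts, measured 1.48, 0.970 and 0.605 in the spheres and 95.2, 85.0 and 64.5 in SCDM (5.36 ± 0.18, limma adjusted p = 1.54e-09). Tagln, the transgelin gene, measured 0.534, 1.15 and 0.764 in the spheres and 192, 171 and 142 in SCDM (6.54 ± 0.31), and Myl9, a regulatory myosin light chain gene, 1.49, 0.909 and 0.655 in the spheres and 117, 97.1 and 83.8 in SCDM (5.64 ± 0.17). Every SCDM library was above every sphere library in all 3, which was a condition for their place among the largest rises. Myh11 (0.0598 ± 0.00595 scaled TPM) and Des (0.283 ± 0.0956), also genes of smooth muscle, averaged under 1 in SCDM. The single member that fell, the kinase gene Mylk (−0.30), no longer passed the test when sphere replicate 3 was left out.

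The promoter of Myl9 is shown because it was the only one among 13 RefSeq promoter windows of these genes, found for 12 of the 15, with a CArG box, the site known for serum response factor. The window covers the 250 bases before the transcription start on the plus strand at chr2:156775214-156775463 in GRCm38.p6, read 5′ to 3′, and the capitals mark the CArG box, which starts at −161. The motif was added after values were seen and is a description of the letters only. It was present in 7.69% of the windows of the list and in 1.47% of all 32851 promoter windows.
Myl9: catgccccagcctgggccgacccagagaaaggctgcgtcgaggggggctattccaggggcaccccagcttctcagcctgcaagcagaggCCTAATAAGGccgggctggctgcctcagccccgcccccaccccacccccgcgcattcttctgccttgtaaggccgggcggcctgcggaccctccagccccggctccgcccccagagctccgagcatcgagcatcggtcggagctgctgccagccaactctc

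Known targets of the mechanosensitive YAP and SRF pathways included some of the larger rises. Ccn2, the connective tissue growth factor gene, measured 32.8, 29.2 and 36.4 in the spheres and 656, 656 and 623 in SCDM (4.26 ± 0.10, limma adjusted p = 1.87e-10), and Ccn1 53.7, 54.9 and 51.4 in the spheres and 624, 568 and 548 in SCDM (3.42 ± 0.14). Amotl2 (2.33), Vcl (0.99) and Ajuba (0.96) rose, and Tgfbi (−0.88) and Ptpn14 (−0.35) were among those that fell. Over the 11 genes, 6 rose and 3 fell.

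Cartilage, cochlear fibrocyte and mesenchyme genes moved in both directions. Col2a1, the type II collagen gene of cartilage and of the inner ear, measured 528, 487 and 485 in the spheres and 4182, 4359 and 4416 in SCDM (3.11 ± 0.25, limma adjusted p = 1.09e-06). The aggrecan gene Acan (2.71), the chondromodulin gene Cnmd (3.72) and the type IX collagen genes Col9a1 (1.59) and Col9a2 (1.07) rose, while the mineralised tissue genes Dmp1 (−2.00) and Spp1 (−1.25) fell. In the cartilage and bone list, 7 of 16 tested genes rose and 4 fell (7 without the rescaling). Of 21 tested genes of otic mesenchyme and cochlear fibrocytes, 4 rose and 11 fell. For both lists the shares over all genes were 24.5% risen and 25.8% fallen. Gjb2, which encodes connexin 26 of the cochlear gap junction network, measured 177, 181 and 182 in the spheres and 14.1, 12.0 and 10.99 in SCDM (−3.77 ± 0.11, limma adjusted p = 6.37e-10). Gjb6 (−2.51), which encodes the partner connexin, and Coch (−2.99), the cochlin gene of spiral ligament fibrocytes, fell likewise. The mesenchymal factor genes Tbx18 (−1.13) and Prrx2 (−2.01) fell, and Foxd1 (1.77), Tbx15 (1.59) and Twist1 (0.57) rose, so no single direction held for the list.

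**Figure D3:**
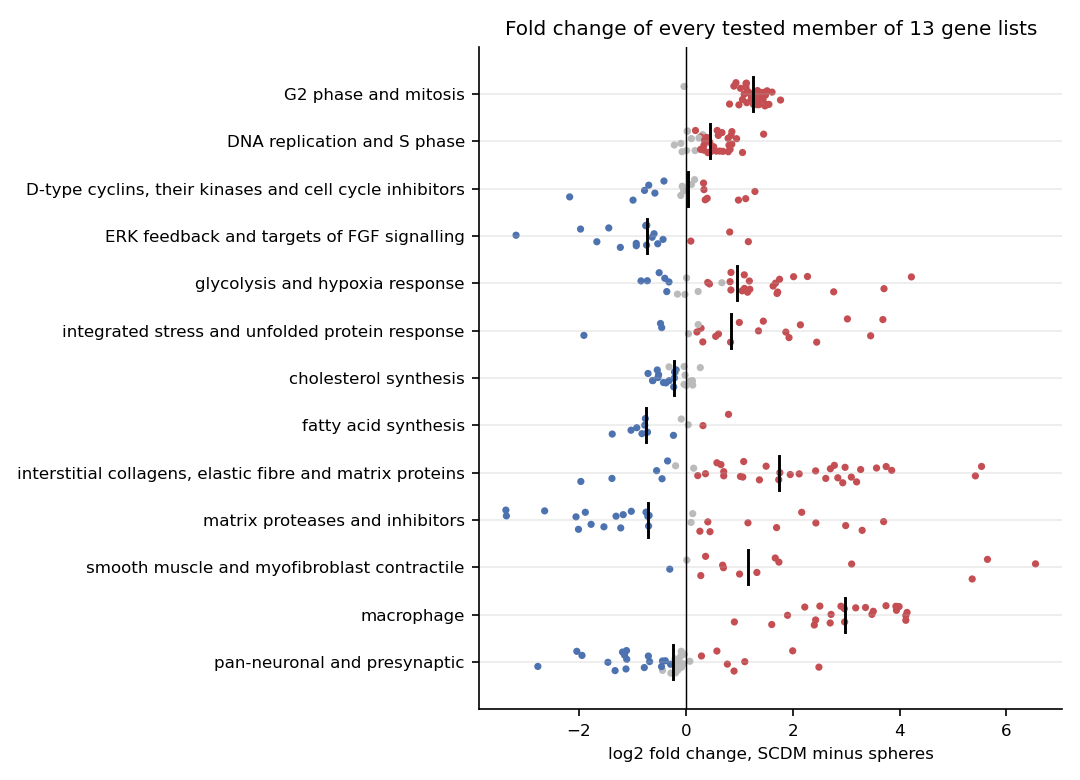
Log2 fold change from spheres to SCDM (x axis) of every tested member of 13 gene lists, with genes that rose in red, genes that fell in blue, the others in grey and the median of each list as a black bar. The medians run from −0.74 for fatty acid synthesis to 2.97 for macrophage genes.

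Genes induced by ERK signalling fell in the medium without added EGF, bFGF and IGF. Of 18 feedback and target genes, 15 fell and 3 rose (median −0.73). Spry4, a Sprouty inhibitor of receptor tyrosine kinase signals, measured 23.8, 23.2 and 23.2 in the spheres and 1.79, 1.76 and 1.57 in SCDM (−3.17 ± 0.07, limma adjusted p = 1.17e-10), and Dusp6, a phosphatase that inactivates ERK, 80.0, 85.1 and 85.2 in the spheres and 32.1, 27.5 and 31.0 in SCDM (−1.44 ± 0.07). Dusp4 (−1.97), Phlda1 (−1.66), the ETS factor genes Etv4 (−1.22) and Etv5 (−0.73) and the immediate early gene Egr1 (−0.92) fell. Myc was an exception and rose from 18.9 ± 0.883 in the spheres to 43.8 ± 1.50 in SCDM (1.17), as did Dusp5 (0.82). The EGF receptor gene Egfr rose from 13.7, 13.7 and 15.5 in the spheres to 60.3, 64.7 and 55.2 in SCDM (1.99 ± 0.10), and Fgfr2 (1.41) rose while Fgfr1 (−0.39) and Fgfr4 (−2.37) fell.

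Genes of the IGF system and other growth factor genes changed in both directions, with Igf1 and Igf2 among those that rose. Of 16 IGF system genes 8 rose and 4 fell, where 24.5% and 25.8% of all genes did. Igf1 measured 26.1, 27.0 and 26.6 in the spheres and 178, 192 and 176 in SCDM (2.73 ± 0.06, limma adjusted p = 1.34e-10), and Igf2 170.3, 177 and 174 in the spheres and 1305, 1202 and 1144 in SCDM (2.80 ± 0.13). H19, the noncoding RNA gene next to Igf2, rose to 2128 ± 137 scaled TPM from 170.2 ± 3.06 (3.63). Of the IGF-binding proteins and their proteases, Igfbp7 (3.19), Pappa (1.48) and Pappa2 (3.81) rose and Igfbp3 (−1.81) fell. Among other ligands, Fgf7, a growth factor of stromal cells that acts on epithelia, rose from 4.46, 6.29 and 6.33 in the spheres to 64.7, 61.6 and 58.6 in SCDM (3.24), the metabolic hormone gene Fgf21 from 0.0847, 0.542 and 0.0924 in the spheres to 25.8, 25.0 and 26.7 in SCDM (4.45), and the Schwann cell mitogen gene Nrg1 from 1.85, 1.29 and 1.73 in the spheres to 12.3, 15.5 and 13.6 in SCDM (2.50). Tgfa (−1.65), Btc (−1.50) and Fgf5 (−1.16) fell. Ligands thus moved in both directions, and 8 of 16 tested ligand genes rose and 6 fell.

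Antagonists of BMP and Wnt signals were among the genes that changed. Chrdl1, a BMP antagonist gene, measured 8.00, 7.76 and 7.51 in the spheres and 165, 187 and 185 in SCDM (4.36 ± 0.09, limma adjusted p = 6.74e-11). The secreted Wnt antagonist genes Sfrp2 (2.72) and Sfrp4 (3.94) rose and Wif1 (−3.51) fell, and the Wnt target genes Axin2 (−0.96) and Lef1 (−1.40) fell. The BMP target genes Id1, Id2 (−1.44) and Id3 (−0.84) fell, as did the inhibin subunit gene Inhbb (−2.48). In the TGF-beta and BMP list 8 of 24 tested genes rose and 12 fell, and in the Wnt list 8 of 26 rose and 12 fell. The shares over all genes were 24.5% risen and 25.8% fallen. Of 14 tested retinoid genes, 7 rose and 3 fell, with the binding protein gene Crabp1 at 0.454 ± 0.109 in the spheres and 27.5 ± 0.464 in SCDM (4.29) and Crabp2 at 77.0 ± 8.24 in the spheres and 23.5 ± 2.97 in SCDM (−1.67).

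Genes of cell division rose after 14 days in the medium without added EGF and bFGF. Of 35 genes of the G2 phase and mitosis, 34 rose, 30 of them at least 2-fold, and 0 fell, with a median of 1.27. Their summed level was 245, 241 and 246 in the spheres and 584, 635 and 682 in SCDM, in scaled TPM, with no overlap. Cdk1, the kinase that drives entry into mitosis, measured 24.4, 26.2 and 26.7 in the spheres and 70.2, 69.7 and 73.7 in SCDM (1.43 ± 0.20, limma adjusted p = 1.00e-04). Cdc20, an activator of the anaphase-promoting complex, measured 8.77, 10.8 and 8.70 in the spheres and 26.9, 29.98 and 29.9 in SCDM (1.52 ± 0.10), and Kif11, a motor of the mitotic spindle, 3.64, 2.26 and 2.96 in the spheres and 6.53, 8.19 and 8.61 in SCDM (1.16 ± 0.16). In each of the 3 genes the lowest SCDM library was above the highest sphere library. Mki67 (1.61), the gene of the proliferation antigen Ki-67, and Kif23 (1.77) rose too. Genes of DNA replication rose less, 27 of 37 tested and 2 of them at least 2-fold (Tyms, 1.46, and Rrm2, 1.06), with a median of 0.45. The regulators upstream were mixed: Ccnd1 (0.40) and Ccnd2 (0.33) rose and Ccnd3 (−0.69) fell, and among inhibitors Cdkn1c (−2.17) and Cdkn1a (−0.77) fell and Cdkn2a (1.29) and Cdkn2c (1.12) rose. Which cells in the culture divided cannot be read from bulk libraries, and the macrophage genes described below rose in the same libraries, their part in this result not being tested.

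The promoters of Cdk1, Cdc20 and Kif11 are shown because promoters of mitosis genes are known for 2 sequence elements, CCAAT boxes, bound by NF-Y, and the cell cycle homology region (TTTGAA or TTCGAA), bound by the DREAM and MuvB complexes. RefSeq promoter windows were found for 28 of the 35 genes, 29 windows in all. In the 250 bases before the start site, on either strand, 79.3% of these windows held CCAAT, against 33.8% of all windows, 37.9% held the cell cycle homology region, against 17.1%, and 34.5% held both, against 6.02%. CCAAT was also frequent in the windows of other lists, at 84.2% for cholesterol synthesis, 70.0% for the integrated stress list and 64.7% for DNA replication. The motifs did not overlap in any of the 29 windows. A match is a description of letters and not a bound site. Of 34 windows of 30 replication genes, 23.5% held an E2F element (GGCGGGAA or TTTCGCGC), against 2.11% of all windows. Motifs did not follow every list. E2F was in 3.45% of mitosis windows, and the cell cycle homology region in 20.6% of replication windows. The ETS letters CCGGAAGT were in 0 of 13 windows of the ERK list, against 2.88% of all windows. The sterol element TCACCCCAC was in 1 of 19 cholesterol synthesis windows, against 0.496%. The windows below are from GRCm38.p6, read 5′ to 3′ along the gene, at chr10:69352913-69353162 (minus strand), chr4:118437344-118437593 (minus strand) and chr19:37376132-37376381 (plus strand), with CCAAT boxes and cell cycle homology regions in capitals, including those that read as ATTGG or TTCAAA from the opposite strand.
Cdk1: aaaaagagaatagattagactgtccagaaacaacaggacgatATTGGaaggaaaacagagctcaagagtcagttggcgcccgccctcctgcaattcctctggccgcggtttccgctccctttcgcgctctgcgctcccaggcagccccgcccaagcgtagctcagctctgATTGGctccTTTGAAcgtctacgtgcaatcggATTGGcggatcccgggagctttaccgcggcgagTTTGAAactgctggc
Cdc20: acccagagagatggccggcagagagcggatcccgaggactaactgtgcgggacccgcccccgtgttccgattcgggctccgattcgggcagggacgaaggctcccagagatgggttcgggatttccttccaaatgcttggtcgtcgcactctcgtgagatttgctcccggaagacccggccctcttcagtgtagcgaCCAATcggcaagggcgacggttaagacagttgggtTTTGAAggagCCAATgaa
Kif11: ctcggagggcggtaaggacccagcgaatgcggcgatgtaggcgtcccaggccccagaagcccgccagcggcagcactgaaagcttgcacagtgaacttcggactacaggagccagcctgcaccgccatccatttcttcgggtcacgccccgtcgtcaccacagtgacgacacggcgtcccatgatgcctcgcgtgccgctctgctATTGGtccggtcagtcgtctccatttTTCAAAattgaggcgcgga

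Macrophage genes rose together, with the highest median of the 45 lists. Of 24 genes, 23 passed the limit on low levels, all 23 of them rose, 22 at least 2-fold, and the median was 2.97. Csf1r, the receptor for the macrophage growth factor CSF1, measured 4.46, 6.82 and 4.28 in the spheres and 98.0, 100.4 and 117 in SCDM (4.12 ± 0.15, limma adjusted p = 2.90e-09). C1qa, a chain of the complement initiator C1q, measured 22.1, 26.1 and 19.9 in the spheres and 459, 381 and 408 in SCDM (4.14 ± 0.11), and Adgre1, which encodes the macrophage antigen F4/80, 13.9, 10.2 and 12.1 in the spheres and 184, 200.1 and 214 in SCDM (3.94 ± 0.12). The transcripts were present in every sphere library as well, at a lower level, and the groups did not overlap. Lyz2, the lysozyme gene of myeloid cells, reached 3780.5 ± 172 scaled TPM from 483 ± 61.4 (2.97), and the leukocyte gene Ptprc 15.1 ± 1.11 from 1.47 ± 0.112 (2.70). Cd163, a marker of some tissue macrophages, was near 0 in both groups. The receptor genes C5ar1 (2.38) and C3ar1 (2.47), expressed by macrophages, rose with them, and so did Tnf (2.37).

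Markers of further cell types did not rise as lists. Of 12 tested endothelial genes 3 rose and 8 fell, with Egfl7 at 56.5 ± 6.41 in the spheres and 15.9 ± 1.79 in SCDM (−1.77), the exceptions including Erg (3.30) and Tek (1.89), and Cldn5 was listed at 0 in all SCDM libraries. Of 8 tested pericyte genes 2 rose (5 in a model of the 6 libraries alone) and 2 fell. Of 22 epithelial and hair cell genes, 10 passed the limit on low levels, 2 rose and 6 fell. Myo7a, an unconventional myosin gene of hair cells, rose from 4.64 ± 0.784 in the spheres to 41.5 ± 5.62 in SCDM (2.92), while the hair cell genes Atoh1 and Pou4f3 were listed at 0 in all 6 libraries. Melanocyte genes were low, with 1 of 4 tested genes up and 1 down, and of the skeletal muscle genes the 1 member that fell, Pax3, averaged under 1 scaled TPM in both groups.

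Some interferon-induced genes rose in SCDM, by an amount that depended on the library. Of 26 genes, 13 rose and 0 fell, where 24.5% and 25.8% of all genes did, and the median was 0.74. Ifitm1, which fell (−4.72), is not in that list. The summed level was 297, 299.7 and 274 in the spheres and 710.2, 716 and 1041 in SCDM, in scaled TPM, with SCDM replicate 3 highest, and without that library 9 of the genes rose. Bst2, which encodes tetherin, measured 53.6, 55.3 and 54.5 in the spheres and 292, 269 and 368 in SCDM (2.47 ± 0.11, limma adjusted p = 1.31e-08), and Isg15, a ubiquitin-like protein gene, 29.6, 28.4 and 25.2 in the spheres and 79.2, 79.1 and 134 in SCDM (1.73 ± 0.37, limma adjusted p = 2.09e-03). Antigen presentation genes went down instead, with 0 of 14 tested up and 9 down, among them H2-K1 (−0.80), H2-D1 (−0.97) and B2m (−0.50).

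The acute-phase genes Saa3 and Lcn2 fell, and complement genes moved in both directions. Saa3, a serum amyloid gene, measured 4253, 4859.5 and 4128 in the spheres and 275, 346 and 485 in SCDM (−3.61 ± 0.21, limma adjusted p = 7.98e-08), and Lcn2, the lipocalin gene, 3180.1, 3449 and 3104 in the spheres and 796, 942 and 1069.7 in SCDM (−1.80 ± 0.12). Both were among the abundant transcripts of every sphere library. The complement protease gene Masp1 (−3.39) and C3 (−1.24) fell, while the complement regulator genes Cd55 (3.27) and Serping1 (1.54) rose. The chemokine gene Cxcl12 rose (1.21) and Ccl11 fell (−2.49). In the cytokine list 8 of 26 genes rose and 12 fell, and in the complement list 8 of 15 tested rose and 5 fell. The shares over all genes were 24.5% risen and 25.8% fallen.

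Glycolytic genes rose. Of 32 genes of glycolysis and the hypoxia response, 21 rose and 6 fell, with a median of 0.95, and the summed level was 4070.3, 4212 and 3955 in the spheres and 8315, 8099 and 8773 in SCDM. Pgk1, which encodes phosphoglycerate kinase, measured 144, 155 and 144 in the spheres and 599.6, 571 and 638 in SCDM (2.02 ± 0.07, limma adjusted p = 1.66e-09). Slc16a3, the lactate exporter gene, measured 2.44, 3.53 and 2.02 in the spheres and 63.5, 63.2 and 72.8 in SCDM (4.22 ± 0.13), and Adm, the adrenomedullin gene, 0.974, 1.06 and 1.23 in the spheres and 25.8, 26.3 and 26.8 in SCDM (3.71 ± 0.20). The glycolytic enzyme genes Eno1 (1.71), Pfkl (1.64), Tpi1 (1.19) and Aldoa (1.10) and the collagen hydroxylase genes P4ha1 (1.68) and P4ha2 (2.77) rose with them. Other genes that hypoxia induces did not, since Ddit4 (−0.50), Ndrg1 (−0.35) and Kdm3a (−0.39) fell.

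The promoter of Pgk1 is shown for its hypoxia response core, ACGTG, which capitals mark on either strand, so that CACGT is the same core read from the other strand. In RefSeq windows of 31 of the 32 genes the core was present in 48.9% of 45 windows, against 16.6% of all promoter windows. The window is chrX:106186850-106187099 on the plus strand of GRCm38.p6.
Pgk1: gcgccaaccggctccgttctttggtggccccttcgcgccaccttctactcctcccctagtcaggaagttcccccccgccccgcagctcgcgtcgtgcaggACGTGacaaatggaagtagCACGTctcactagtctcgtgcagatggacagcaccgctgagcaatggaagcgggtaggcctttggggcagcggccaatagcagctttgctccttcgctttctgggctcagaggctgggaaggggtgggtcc

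Genes of the integrated stress response, in which the factor ATF4 induces amino acid supply, rose. Of 21 genes of that response and the unfolded protein response, 16 rose and 3 fell, with a median of 0.84. Trib3, a pseudokinase gene induced by ATF4, measured 2.42, 2.79 and 2.18 in the spheres and 40.1, 43.8 and 46.9 in SCDM (3.69 ± 0.10, limma adjusted p = 3.11e-10). Chac1, which encodes a glutathione-degrading enzyme, measured 1.15, 1.28 and 0.596 in the spheres and 16.5, 22.8 and 24.0 in SCDM (3.46 ± 0.19), and Slc7a5, an amino acid transporter gene, 9.95, 8.74 and 9.73 in the spheres and 80.5, 84.1 and 87.9 in SCDM (3.02 ± 0.07). The serine and one-carbon enzyme genes Mthfd2 (2.45), Phgdh (1.93) and Psat1 (1.87) and the asparagine synthetase gene Asns (2.15) rose, as did Ddit3 (1.36), the CHOP gene. Members of the endoplasmic reticulum branch changed less, with Hyou1 at 0.32 and Xbp1 at −0.47, and the cystine transporter gene Slc7a11 fell (−1.90).

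The promoter of Chac1 is shown with its amino acid response element in capitals, TTGCATCA, a motif added after values were seen. It was present on either strand in 3 of 20 RefSeq windows of the list (15.0%), those of Chac1, Slc7a11 and Herpud1, against 0.791% of all windows. Chac1 and Herpud1 (0.61) rose and Slc7a11 fell. The window is chr2:119350992-119351241 on the plus strand of GRCm38.p6, and the element starts at −193.
Chac1: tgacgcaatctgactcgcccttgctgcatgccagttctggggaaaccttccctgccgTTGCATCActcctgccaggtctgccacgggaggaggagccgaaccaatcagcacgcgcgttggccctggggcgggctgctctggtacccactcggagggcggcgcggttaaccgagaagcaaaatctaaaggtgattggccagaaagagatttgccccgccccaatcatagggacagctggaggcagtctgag

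Genes of lipid synthesis were mostly lower. Of 24 cholesterol synthesis genes, 13 fell and 0 rose, none by 2-fold, with Idi1 at 69.0 ± 2.31 in the spheres and 44.6 ± 2.29 in SCDM (−0.62) and Tm7sf2 at 21.3 ± 1.77 in the spheres and 12.7 ± 1.09 in SCDM (−0.70). Of 12 fatty acid synthesis genes 8 fell, led by the desaturase gene Scd1, at 186, 178 and 186 in the spheres and 68.7, 70.7 and 70.8 in SCDM (−1.37 ± 0.05, limma adjusted p = 3.76e-09). Apod, an apolipoprotein gene of glia and fibroblasts, fell from 9540.5, 10445 and 9476 in the spheres to 2116, 1944 and 1888 in SCDM (−2.31 ± 0.08), and Apoe, a lipid carrier gene of glia and macrophages, fell from 13083 ± 699 in the spheres to 8067 ± 750.0 in SCDM (−0.70). The oxysterol enzyme gene Ch25h rose (3.35). Of 34 lysosomal genes 7 rose and 18 fell, where 24.5% and 25.8% of all genes did, and 1 changed at least 2-fold, the protease gene Ctsd (1.35), which macrophages express at high level. Of 13 genes of the antioxidant response 5 rose and 8 fell, with Mt1 (−1.39) and Gsta4 (−2.46) down and Sod3 (2.59) up. Of 16 genes of the p53 response 4 rose and 11 fell, and of 13 transcripts encoded by mitochondrial DNA 8 fell, all by less than 2-fold.

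SCDM was then set against SCDM/FGF to show where it differed from a medium with the same neurotrophins and time but with bFGF. From SCDM to SCDM/FGF, 3491 genes rose (21.8%) and 3419 fell (21.3%), and at least a 2-fold change was met by 917 that rose (5.73%) and 647 that fell (4.04%). Counts of list members between the media are to be read beside these shares. Without the rescaling, 2738 rose and 4261 fell. The SCDM libraries enter both comparisons, so the fold changes from spheres and to SCDM/FGF are not independent of each other and are given side by side only. Spry4, at 1.70 ± 0.119 scaled TPM in SCDM, measured 32.2, 32.5 and 33.3 in SCDM/FGF (3.64 ± 0.07, limma adjusted p = 3.64e-11). Dusp6 measured 190.0, 167 and 179 (2.53), so both lay above their sphere level with bFGF and below it without. In the ERK list as a whole, 16 of 18 genes were higher with bFGF and 1 lower.

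Matrix, cartilage and stress genes set SCDM apart. Col2a1 measured 34.2, 50.7 and 19.3 in SCDM/FGF, against 4319 ± 122 in SCDM (−7.02 ± 0.25, limma adjusted p = 1.66e-09), Acan 0.00980, 0.685 and 0.0102 (−5.46), and Eln 6.95, 23.4 and 7.46 (−5.67 ± 0.33, limma adjusted p = 9.40e-08). With bFGF, all libraries lay below all spheres for Col2a1 and Acan, whereas Eln overlapped with the spheres. Of the 37 matrix genes 6 were higher and 28 lower with bFGF, with Fn1 (−0.85), Col1a2 (−1.82) and Postn (−3.17) lower and Loxl2 (0.93) and Col3a1 (0.98) higher. Acta2 measured 5.11, 7.28 and 5.90 (−3.53), between the other groups. Trib3 measured 2.52, 3.12 and 2.68 (−3.56 ± 0.10), near its sphere level, and the summed level of the integrated stress list was 2290.2, 2351 and 2306 in SCDM/FGF and 1708, 1754 and 1711 in the spheres and 2550.4, 2546 and 2632 in SCDM. Chrdl1 (−5.87), Fgf21 (−4.23) and Pappa2 (−3.76) were lower with bFGF too.

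Proteases, chemokines and cytokines differed between the media in both directions. Of 28 tested genes of proteases and inhibitors, 18 were higher with bFGF and 9 lower, and of 26 cytokine genes 16 were higher and 4 lower, the chemokine gene Cxcl12 among the latter (−2.24). Mmp3 measured 5312, 4878 and 5206 in SCDM/FGF (5.13 ± 0.21, adjusted p = 5.29e-09 in limma), and Ccl11, the eotaxin gene, 683, 684 and 842 against 0.834 ± 0.144 in SCDM (8.65 ± 0.09, limma adjusted p = 8.51e-13). Il33 (4.89), Ccl2 (3.21), Saa3 (3.20) and Hmga2 (4.31) were higher with bFGF too. The neurotrophin gene Bdnf (2.61) and the TrkB gene Ntrk2 (2.24) were higher with bFGF.

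Some of the main changes from spheres did not differ between the media by the test. Csf1r measured 101, 84.5 and 89.4 in SCDM/FGF (−0.19 ± 0.15, adjusted p = 3.47e-01 in limma), and the macrophage sum was 7146, 6721 and 6979. Sox10 measured 31.5, 25.8 and 35.6 (0.09 ± 0.11, limma adjusted p = 5.66e-01), and Cdk1 48.0, 87.3 and 62.2 (−0.15 ± 0.20, limma adjusted p = 5.76e-01). These p values do not show that the levels were equal. Some members of the same lists did differ, with S100b (−2.37), Ncam1 (−1.85) and Cx3cr1 (−1.31) lower with bFGF and Mrc1 (1.19) higher. Of the 35 mitosis genes 15 were lower with bFGF and 0 higher, where 21.3% and 21.8% of all genes were. Cdc20 was among the former (−0.56), whereas Ccnd1, of another list, was higher (1.66). The mitosis sum was 420, 607 and 476 in SCDM/FGF, so replicate 2 lay within the SCDM range of 584 to 682. Glycolytic genes rose further, with Slc16a3 at 191, 228 and 192 (1.60) and Pgk1 (0.81) above SCDM.

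**Figure D4:**
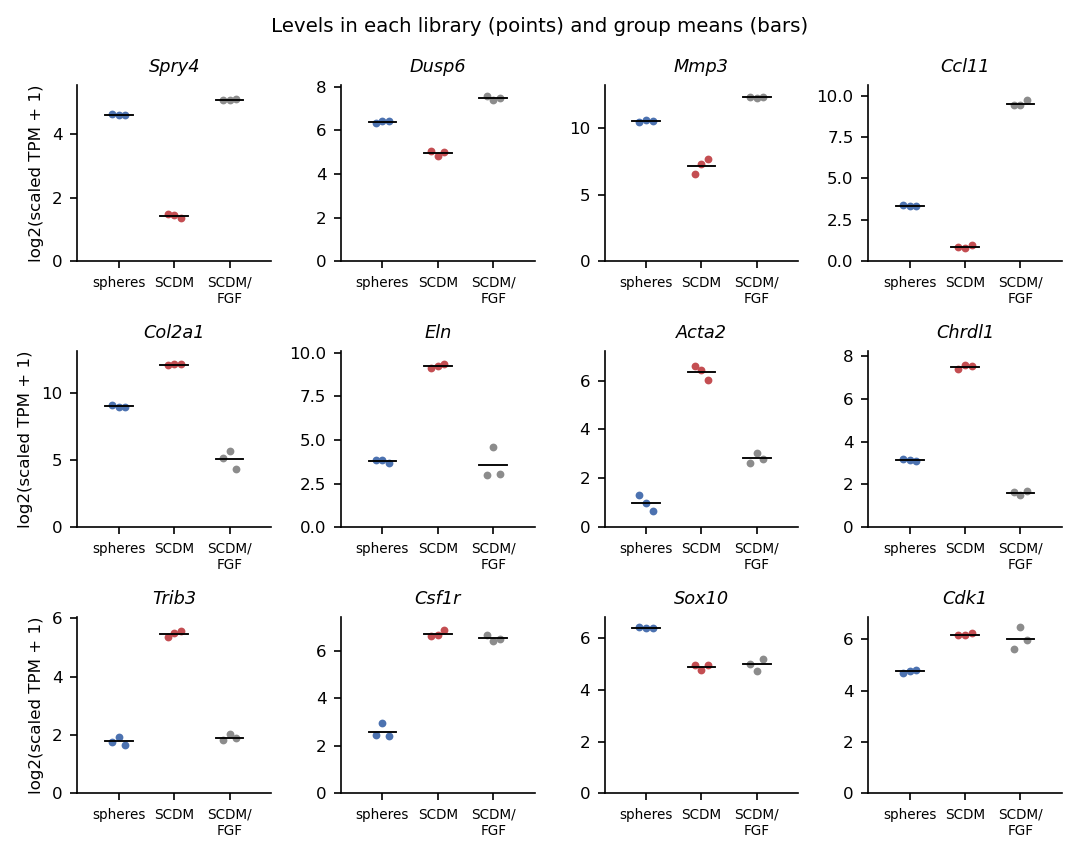
Log2(scaled TPM + 1) (y axis) of 12 genes in each library (points), with the group means as bars, for the libraries of spheres, SCDM and SCDM/FGF. Spry4, Dusp6, Mmp3 and Ccl11 are lowest in SCDM, Col2a1, Eln, Acta2, Chrdl1 and Trib3 are highest in SCDM, and Csf1r, Sox10 and Cdk1 lie on the same side of the spheres in both media.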

How the data were processed

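Libraries were made from poly(A)-selected RNA of 12 samples in 4 groups of 3, the fourth group being FIBCL, a small-molecule treatment, which entered the model but is not described. By the study's methods, the authors used SeqPrep and Sickle to trim the read pairs, TopHat for alignment and RSEM for gene abundances, and the submitters' processing notes also name Cufflinks. The authors deposited TPM per gene and library, normalized for gene length and library size, and the genome build and read depth are not given in the sources used here. TPM are shares of a library, so a rise in abundant genes lowers all others, which the rescaling offsets for the typical gene. The study compared groups with EdgeR, but TPM are not counts and limma was used instead.

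Of 55487 genes in the table, 16016 were tested, those that reached 1 TPM in 3 or more libraries. Each library was scaled by a trimmed mean (30% removed from each tail) of its log2 ratios to an average library, taken from the 8434 genes that all libraries held at 5 TPM or more. The scaled TPM plus a pseudocount of 1 were taken to log2 and fitted in R 4.3.3 with limma 3.58.1, all 12 libraries in one model with a variance trend, for SCDM minus spheres and SCDM/FGF minus SCDM. Tests are two-sided, and the fit was tested on simulated data. The calls use an adjusted p of 0.05 and, where stated, a fold limit of 2. Genes were named from 45 gene lists or as the 15 highest and 15 lowest fold changes among genes past the adjusted p threshold that averaged 10 scaled TPM or more over the 6 libraries, did not overlap between the groups, and had a symbol held by 1 row that was not a clone name. The lists and tests were chosen with earlier results of these data known, and lists are given as counts and medians with no test of their own. Gene positions are from GENCODE M21, matched by gene identifier, and promoter sequences from RefSeq for GRCm38.p6, matched by symbol. Tables were handled in Python 3.11.15 with pandas 2.3.3 and figures drawn with matplotlib 3.10.9. Alternatives covered the scaling, pseudocount, low-value limit, libraries in the model, a replicate block, the variance trend, the fold limit and leaving out each library. Some genes that count among list members are not reported here by name.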

Additional observations from a re-analysis of the deposited data

Results flagged for a closer look

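List members that are not reported by name were left out of this count. Of the other genes in the lists, 28 changed at least 2-fold from spheres in opposite directions in SCDM and in SCDM/FGF. Each difference between the media was itself past the threshold in limma with Benjamini-Hochberg adjustment (n = 3 libraries per group). The sphere libraries are shared by both changes from spheres, and each value below is the log2 fold change from SCDM to SCDM/FGF.

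Genes up in SCDM and down with bFGF were 9. The cartilage matrix genes among them were Col2a1 (−7.02), Col9a1 (−6.39), Acan (−5.46) and Col9a2 (−4.38). The secreted antagonist genes were Chrdl1 (−5.87) and Sfrp2 (−4.57). The others were the myelin gene Ncmap (−3.92), the E-cadherin gene Cdh1 (−3.12) and the chemokine gene Cxcl12 (−2.24).

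The other 19 were down in SCDM and up with bFGF. Secreted factors of this kind were Ccl11 (8.65), Inhbb (3.48), Igfbp3 (2.93), Bdnf (2.61) and Spp1 (2.52). Matrix and protease genes were Mmp3 (5.13), Col15a1 (4.30), Mmp13 (3.56), Mmp10 (2.96) and Plat (2.63). Vascular genes were Cdh5 (4.02), Notch4 (2.90), Emcn (2.69) and Rgs5 (2.55). The remaining genes were the chromatin protein gene Hmga2 (4.31), the retinoic acid synthesis gene Aldh1a2 (4.12), the apolipoprotein gene Apod (3.53), the metallothionein gene Mt1 (3.18) and the ERK phosphatase gene Dusp6 (2.53).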

How the results depend on the processing

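Each fold change of a named gene was computed under 16 alternatives (15 for 4 of them), and 305 of 310 kept their direction and their side of the threshold in all of these. Of 1438 list counts, 1395 stayed within 1.5 times. The exceptions were Ntrk3 (0.15 without rescaling, 0.22 to 0.31 when 1 of 5 libraries was left out, 0.30 with a pseudocount of 0.1, 0.28 with every gene above 0 or the block), Sema3b (0.22 without rescaling), Mylk (−0.24 without sphere replicate 3) and 2 differences between SCDM/FGF and SCDM that were not called and changed sign, Cdk1 (−0.38 to 0.050 over the SCDM/FGF libraries left out in turn, the highest without replicate 1) and Sox10 (−0.019 to 0.21, the lowest without replicate 3). With a pseudocount of 0.1, 1350 genes were at least 2-fold lower in SCDM than in spheres. At a log2 fold limit of 1.5, 603 were higher and 387 lower, and testing against a log2 fold change of 1 gave 611 and 426. Leaving out 1 library gave 1097 to 1137 genes at least 2-fold higher and 870 to 896 lower. With at least 5 TPM required, fewer list members were tested and 6 Wnt and 4 endothelial genes fell. Medians of 8 of the 45 lists changed sign in at least 1 alternative, and none of these is given above.

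With the replicate number as a block, 1112 genes were at least 2-fold higher and 876 lower in SCDM. Deviations of same-numbered SCDM and sphere libraries correlated at −0.119 to 0.0287, which gave no sign of pairing by number. These correlations cannot exclude that same-numbered libraries came from the same animals. The number of reads behind low TPM is unknown, so counting error could not be given.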
